A study of Mus musculus with 6 samples.

Results

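Otx1, Tbx3, Eya1 and Slitrk6 are 4 genes of the developing inner ear, and their transcripts were followed in otocysts with 0, 1 or 2 altered copies of the chromatin remodeller gene Chd7. They were selected on their deposited fold changes in these same comparisons. All 4 appear among the 1167 distinct genes that the authors called as different from wild type, and they were found by exact gene symbol in the 4 deposited lists. All 4 were lower in homozygotes, among 1085 genes called there, and only Slitrk6 was called in heterozygotes, among 138 genes. These values chose the genes, so they are given as a description without a test.

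The otocyst is the epithelial vesicle that folds in from the ectoderm beside the hindbrain and forms the whole inner ear. Early in its life regional transcription factors divide it into territories that become the semicircular canals, the cochlea and the sensory patches, and nerve fibres later grow back into those patches. Otx1 encodes a homeodomain transcription factor that mice need to form the lateral semicircular canal. Tbx3 encodes a T-box transcription factor, in most settings a repressor, and Eya1 encodes a phosphatase and transcriptional coactivator. Mice without Eya1 do not form an inner ear, and loss of one copy in people causes branchio-oto-renal syndrome. Slitrk6 encodes a leucine-rich repeat membrane protein of the sensory epithelium that mice need for normal innervation of the ear, and its loss in people causes deafness with myopia.

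RNA sequencing of polyadenylated RNA was done on otocysts dissected from B6129SF1/J mouse embryos at embryonic day 10.5. The groups were Chd7+/+ (wild type), Chd7Gt/+ (heterozygous) and Chd7Gt/Gt (homozygous), each with 2 libraries. Gt is the mouse nomenclature for a gene trap, carried in every cell of the embryo and not in the ear alone. Values per library were not used here: the authors' deposited table gives, for each called gene, a log2 fold change of mutant against wild type and an adjusted p. The depth is therefore unknown, no standard deviation stands beside a fold, and groups cannot be compared library by library. Nothing in the labels tells whether paired libraries of 1 genotype are separate embryos or repeats. The deposited adjusted p-values may thus reflect technical spread alone. Heterozygotes and homozygotes were compared with the same pair of wild type libraries.

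Chd7 itself fell to 67.1% of its wild type level in heterozygotes and to 22.4% in homozygotes in the authors' deposited table, which follows the labels. Of the 21924 protein-coding genes of the GENCODE M21 annotation, 2.97% were called lower and 1.78% higher in homozygotes. In heterozygotes 0.429% were called lower and 0.182% higher. How many genes the authors tested is not given in the sources used here, so these shares rest on the annotation. A gene outside the lists may have missed the adjusted p of 0.05 or may not have been measured, and is called not listed.

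**Figure D1:**
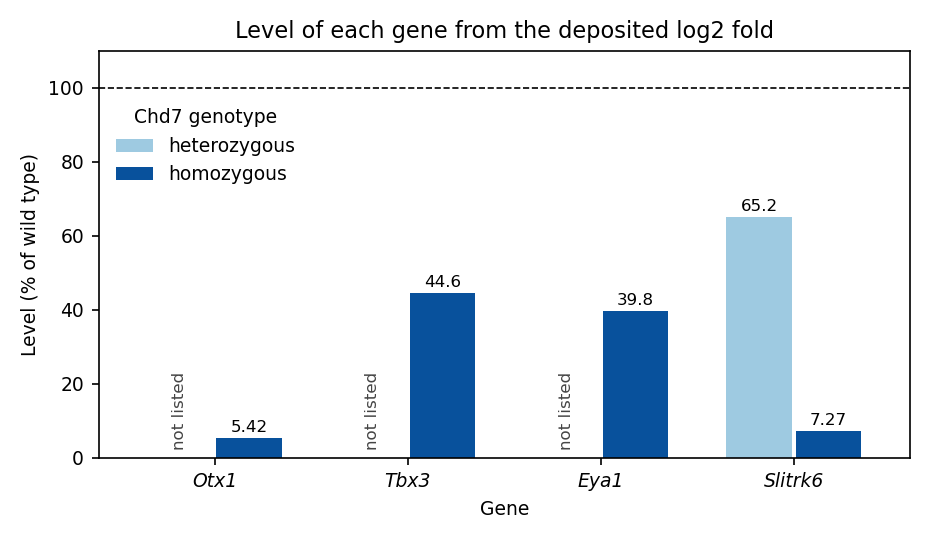
Level of each gene as a percent of wild type (vertical axis, dashed line at 100%), computed from the deposited log2 fold in heterozygous (light) and homozygous (dark) otocysts. Otx1 (5.42%) and Slitrk6 (7.27%) stand well below Eya1 (39.8%) and Tbx3 (44.6%) in homozygotes, and only Slitrk6 has a listed value in heterozygotes (65.2%); no error bars are drawn because the deposited lists hold no values per library.

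The 3 transcriptional regulators differed in how far they fell. Otx1 dropped to 5.42% of wild type in homozygotes, an 18.4-fold fall (log2 -4.20 and adjusted p 1.13e-09, as deposited by the authors). Among the 669 genes called lower, the taste transducin gene Gnat3 alone had a larger fold. The genes with the nearest folds were Otol1, an otoconial matrix gene (log2 -4.15), and Neurod4, a proneural transcription factor gene (log2 -4.13), in the authors' deposited table. By adjusted p, Otx1 came after 40 other lower genes. Otx1 was not listed in heterozygotes.

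Eya1 fell less far, to 39.8% of wild type, and with one of the smallest adjusted p-values. Its fold was 2.51-fold lower (log2 -1.33), with an adjusted p listed as 0 in the authors' deposited table. It shared that listed 0 with 16 others of the 669 lower genes, 17 in all, and ranked 10 of the 17 by fold. Its fold itself was ordinary, with 49.2% of the lower genes showing a smaller one. The nearest folds were those of Fndc7 and of Ctnnd2, a catenin of neuronal junctions, both at log2 -1.33 with adjusted p-values of 0.0312 and 0.0257 in the authors' deposited table. All 52 other lower genes within 0.1 of Eya1 on the log2 scale had a larger adjusted p, with a median of 0.009. Eya1 was not listed in heterozygotes.

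Tbx3 was 2.24-fold lower at 44.6% of wild type, with a log2 fold of -1.16 and an adjusted p of 2.19e-08 as deposited by the authors. It too combined an ordinary fold, larger than that of 42.3% of the lower genes, with a small adjusted p. Of the 64 other lower genes within 0.1 on the log2 scale, 60 had a larger adjusted p and 4 a smaller one, and their median was 0.00847. The nearest folds were those of Atp6v0a2, a subunit of the vacuolar proton pump (log2 -1.17, adjusted p 0.0457), and Plagl2, a zinc finger gene (log2 -1.16, adjusted p 0.0101), as the authors' deposited table gives them. Tbx3 was not listed in heterozygotes. The annotation places the antisense gene Tbx3os1 over Tbx3. The library kit named in the labels does not keep strand, so reads from where they overlap cannot be told apart by strand. The span of Eya1 overlaps the microRNA gene Gm22616 on the opposite strand and Gm37444 on the same strand. Whole gene spans with introns were compared, so whether these overlaps reach exons or affect the folds is unknown.

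**Figure D2:**
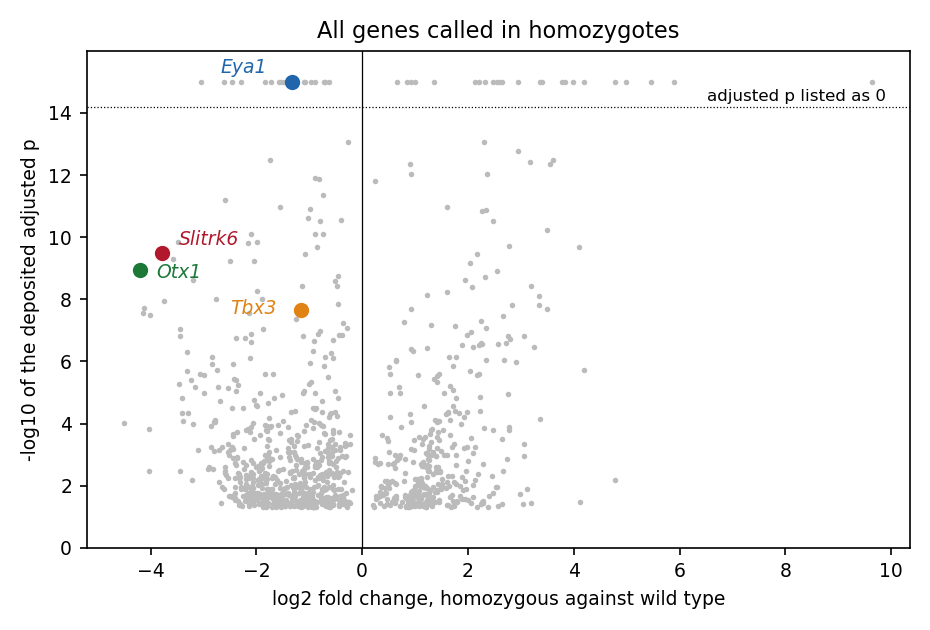
Deposited log2 fold change (horizontal axis) against the negative log10 of the deposited adjusted p (vertical axis) for all 1085 genes called in homozygotes, with genes listed at 0 drawn above the dotted line. Otx1 and Slitrk6 lie toward the left edge, at log2 -4.20 and -3.78, whereas Eya1 and Tbx3 have middling folds and lie above nearly all genes of like fold.

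Slitrk6 was the member called in both genotypes. The authors' deposited table puts it at 65.2% of wild type in heterozygotes (log2 -0.62, adjusted p 0.000581). In homozygotes it was 13.7-fold lower, at 7.27% of wild type (log2 -3.78, adjusted p 3.25e-10). The heterozygous fold was unremarkable among the 95 genes called lower there, of which 45.3% had a smaller one. The homozygous fold ranked 8 of 669. Nearest to it in homozygotes were Robo3, a receptor gene of commissural axons (log2 -3.74), and Mab21l2, a gene of eye and body wall development (log2 -3.58), in the authors' deposited table. Unlike Slitrk6, Robo3 was higher in heterozygotes (log2 1.59) in that table. Nearest in heterozygotes were the forkhead gene Foxp2 (log2 -0.62) and the axon repellent gene Sema3a (log2 -0.61) in the same table.

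Set side by side, the Slitrk6 values leave most of its fall between the heterozygous and the homozygous level. Taking both folds to rest on the same wild type mean, which could not be checked, homozygotes held 11.2% of the heterozygous level (log2 difference -3.16). The median of that difference was -0.78 over the 43 genes lower in both comparisons. The fall between the genotypes was smaller than that of Slitrk6 for 40 of the other genes and larger for 2, Pou3f4 (log2 difference -3.17) and Neurod4 (-3.20). Slitrk6 was chosen with its homozygous fold known, and that fold enters the difference, so its place here is a description alone. Because the wild type libraries are shared, the presence of a gene in both comparisons is not taken as separate evidence.

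Of the 56 genes called in both comparisons, the 4 with the pair of folds nearest to that of Slitrk6 were Mab21l2, Pou3f4, Mab21l1 and Neurod4, by Euclidean distance on the log2 scale over the 2 comparisons. Mab21l2 was at 58.2% of wild type in heterozygotes and 8.34% in homozygotes, at a distance of 0.256. Pou3f4, a POU-domain gene of the periotic mesenchyme whose loss causes deafness, was at 56.1% and 6.25%. Mab21l1 was at 59.9% and 9.25%, and Neurod4 at 52.6% and 5.72%. All of these come from the log2 folds in the authors' deposited table. Their likeness to Slitrk6 is what chose these genes.

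**Figure D3:**
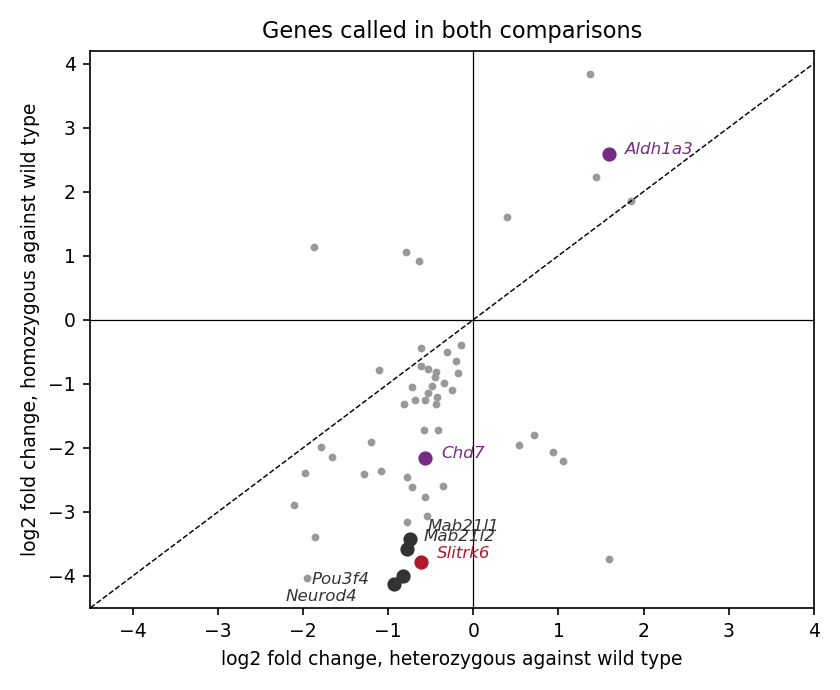
Deposited log2 fold in heterozygotes (horizontal axis) against that in homozygotes (vertical axis) for the 56 genes called in both comparisons, with the dashed line marking equal folds. Slitrk6 (red) sits with Mab21l1, Mab21l2, Pou3f4 and Neurod4 (black) at the bottom of the plot, below Chd7 (purple).

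The letters before the start of Slitrk6 and of Mab21l2, the gene with the nearest pair of folds, are shown because these genes had like values in both genotypes. The sequences are the 250 bases before the annotated start, from RefSeq on GRCm38.p6, read 5′ to 3′ on the strand of the gene. They lie at chr14:110755150-110755399 and chr3:86548284-86548533, both on the minus strand, and capitals mark a motif match.
Slitrk6: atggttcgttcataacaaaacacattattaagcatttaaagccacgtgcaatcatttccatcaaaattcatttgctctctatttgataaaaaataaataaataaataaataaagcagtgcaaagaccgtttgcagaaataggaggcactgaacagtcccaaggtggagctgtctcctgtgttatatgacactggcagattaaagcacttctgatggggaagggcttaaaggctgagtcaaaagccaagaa
Mab21l2: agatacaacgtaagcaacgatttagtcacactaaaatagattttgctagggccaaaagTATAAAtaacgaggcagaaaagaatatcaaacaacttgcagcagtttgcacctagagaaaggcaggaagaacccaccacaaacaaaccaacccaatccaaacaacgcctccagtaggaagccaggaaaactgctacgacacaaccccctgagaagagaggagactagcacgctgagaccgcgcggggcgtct

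The promoter table matched 1 of the 4 members. The Slitrk6 stretch had 37.2% G and C, against a median of 52.4% over 32851 promoters, of which 7.31% were lower. Searched on both strands from 250 bases before to 50 after the start, it held 0 matches to 5 motifs. These were the OTX core TAATCC (in 7.06% of all promoters), the T-box site AGGTGTNA (3.03%), the retinoic acid receptor element AGGTCA (16.3%), the proneural E-box CAGNTG (51.4%) and the TATA box TATAAA (13.6%). The Mab21l2 stretch held 1 TATAAA, beginning 192 bases before the start. The absence of these letters says nothing about binding elsewhere.

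Counts in the families around the members stand beside the 2.97% of annotated protein-coding genes called lower and the 1.78% called higher in homozygotes. In heterozygotes these shares were 0.429% and 0.182%. The lists, like the members, were chosen with earlier results of these data known. Shares without the members are therefore not free of selection and are a description alone. Of 36 otic patterning transcription factor genes, 5 were lower and 1 higher in homozygotes and 30 were not listed. Without Otx1, Eya1 and Tbx3, which were selected for being called, 2 of 33 (6.06%) were lower and 1 was higher. The median log2 fold was -0.89 over these 3 genes, -1.35 over all 669 lower genes and 1.31 over all 416 higher genes in the authors' deposited table. Beside Otx1, Eya1 and Tbx3, the lower ones included Prrx1, a homeobox gene of mesenchyme (log2 -0.89, adjusted p 7.68e-11). The higher one was Zic2, a zinc finger gene of the dorsal neural tube (log2 1.23, adjusted p 0.000899), as in the authors' deposited table. Pax2, Pax8, Dlx5, Hmx3, Gbx2 and Sox2 were among those not listed. In heterozygotes Prrx1 alone was called (log2 -0.45, adjusted p listed as 0 in the authors' deposited table).

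Of 20 genes of the Eya, Dach and Pax families and their partners, 4 were lower, 0 were higher and 16 were not listed in homozygotes. Without Eya1, 3 of 19 (15.8%) were lower. Eya4, a paralogue whose mutation causes hearing loss in people, stood at 40.6% of wild type (log2 -1.30, adjusted p 0.0283). The cofactor genes Dach2 and Dach1 stood at 42.1% (adjusted p 0.00316) and 46.6% (adjusted p listed as 0), all from the authors' deposited table. These 3 levels and that of Eya1 lie between 39.8% and 46.6% of wild type, a common range among the lower genes. Within 0.1 of Eya1 on the log2 scale were 52 other lower genes, and the median log2 fold of all 669 was -1.35. In heterozygotes Dach2 (61.8%, adjusted p 0.0127) and Dach1 (84% of wild type, adjusted p 0.00461) were also lower in the authors' deposited table.

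Apart from the members themselves, 0 of 9 genes in the Otx1 list and 0 of 16 in the Tbx3 list were called in homozygotes. Of annotated protein-coding genes 2.97% were lower and 1.78% higher, so lists this small cannot show a difference from those shares. Otx1 was the only called gene of 10 Otx and related homeobox genes in homozygotes, and 0 of the 10 were called in heterozygotes. Otx2, its closest paralogue, was not listed. Tbx3 was the only called gene of 17 T-box genes in homozygotes, and its closest paralogue Tbx2 was not listed. In heterozygotes the only called T-box gene was Tbx20, known from the heart and motor neurons, at log2 -1.70 (adjusted p 0.00436, as deposited by the authors). How reads shared between paralogues were counted is not given in the sources used here.

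For Slitrk6, 26 leucine-rich repeat and neurotrophin receptor genes were examined. In homozygotes 4 were lower, 1 was higher and 21 were not listed, and without Slitrk6 3 of 25 (12% of them) were lower. Beside Slitrk6, the lower ones were its paralogue Slitrk3 (log2 -2.06, adjusted p 0.00193), the synaptic organiser gene Lrrtm1 (log2 -1.85, adjusted p 0.0185) and Lrrn1 (log2 -1.03, adjusted p 0.0457), as given in the authors' deposited table. The higher one was Flrt3, an adhesion gene linked to FGF signalling (log2 0.79, with an adjusted p of 0.00723 in the authors' deposited table). In heterozygotes Lrrn1 (log2 -0.49) was lower with Slitrk6 in the authors' deposited table. Slitrk6, which was selected on its fold, had the largest fold among the called genes of the group in both genotypes. In heterozygotes these were Slitrk6 and Lrrn1 alone.

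Of 26 genes of ear innervation, 7 were lower in homozygotes, 0 were higher and 19 were not listed. Without Slitrk6, 6 of 25 (24% of them) were lower, and the called ones had a median log2 fold of -1.47. After Slitrk6 the smallest adjusted p-values were those of Isl1, a LIM homeobox gene of sensory neurons (19.1% of wild type, adjusted p 3.92e-06), the neuronal filament gene Prph (17.3%, adjusted p 7.11e-06) and the neurotrophin receptor gene Ngfr (30% of wild type, adjusted p 0.000128), as given in the authors' deposited table. The ligand genes Bdnf and Ntf3 and their receptor genes Ntrk2 and Ntrk3, which sustain the ear's neurons, were not listed. Heterozygotes had 2 lower genes, Slitrk6 and Sema3a, and 24 not listed. Isl1, Prph and Ret also stand in the list of neuroblast markers described next.

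Markers of other tissues were called to different extents. Over annotated protein-coding genes, 2.97% were lower and 1.78% higher in homozygotes, and 0.429% and 0.182% in heterozygotes. These shares stand beside the counts here and in the next paragraph. Of 15 otic neuroblast and ganglion markers, 13 were lower in homozygotes with a median log2 fold of -2.10, while heterozygotes had 1 lower and 2 higher. Of 15 periotic mesenchyme markers, 4 were lower, 1 higher and 10 not listed in homozygotes, and 4 were lower in heterozygotes. The hindbrain and neural tube list of 20 had 4 lower, 2 higher and 14 not listed in homozygotes and 7 lower in heterozygotes. Eya1, Tbx3 and Slitrk6 are also transcribed outside the otic epithelium in the embryo, Eya1 and Tbx3 among others in mesenchyme. Otx1 is not taken to be confined to the otic epithelium either. How much of each tissue was dissected is unknown, and the part of these shifts in the falls of the 4 genes was not tested. In whole otocysts, fewer cells of a type and less RNA per cell cannot be told apart.

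Of 18 markers of the otic epithelium itself, 4 were lower in homozygotes, 14 were not listed, and 0 were called in heterozygotes. The lower ones included Otol1, Oc90, another otoconial protein gene (log2 -2.21), and the deafness gene Otoa (-1.80), in the authors' deposited table. Pax2, Sox10, Lmx1a and Epcam were among those not listed. As the lists hold called genes alone, the presence of otocyst markers in each library could not be checked. Neural crest and glia markers had 0 called of 10 in homozygotes and 3 higher in heterozygotes. Blood and endothelium markers had 1 higher and 1 lower of 15 in homozygotes and 2 lower in heterozygotes.

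**Figure D4:**
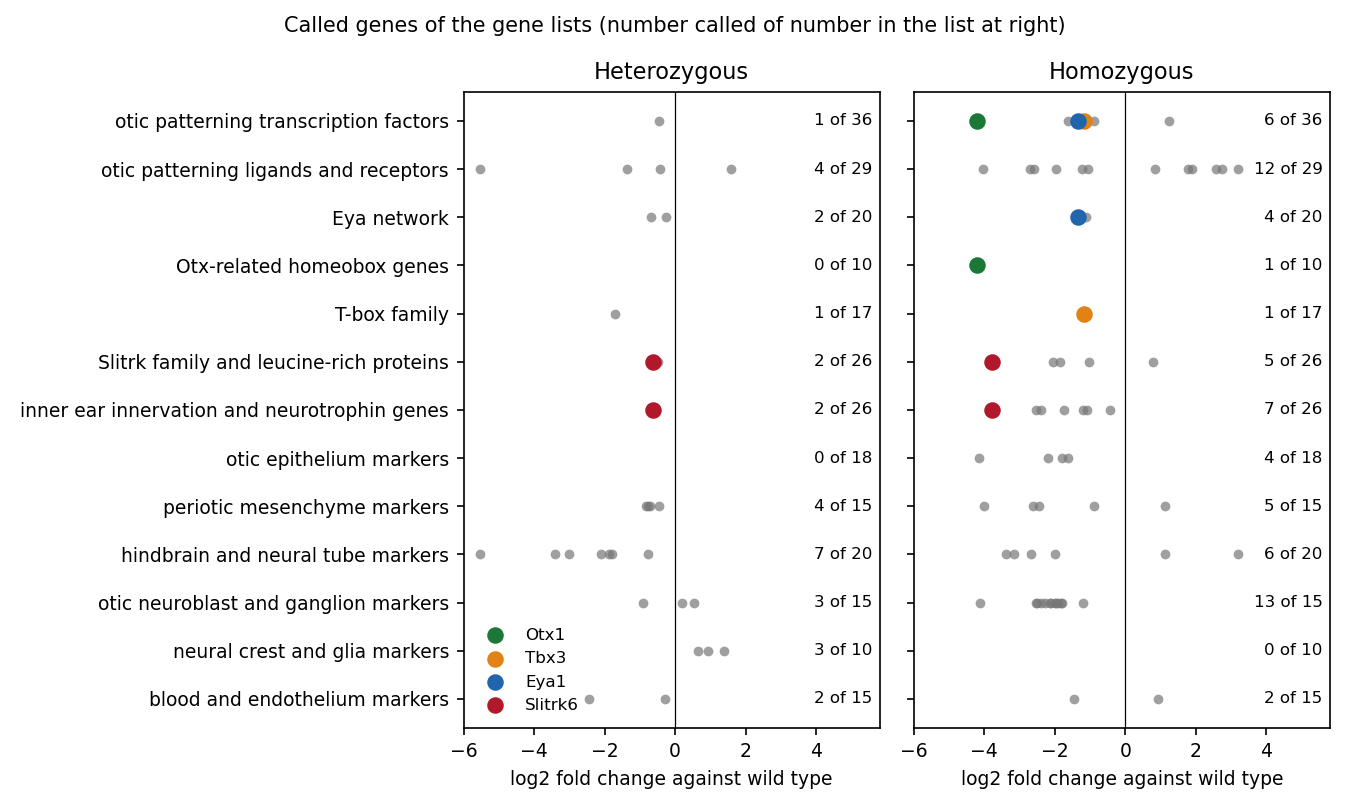
Deposited log2 fold (horizontal axis) of every called gene in each of 13 gene lists (rows), in heterozygotes (left) and homozygotes (right), with the 4 members in colour and other genes in grey; the figures at the right edge give how many of the list were called. Otx1 and Tbx3, which were selected for being called, are the only points in the rows of their families in homozygotes. The neuroblast row there holds 13 of 15, all to the left of 0.

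Signals that act on otic patterning genes were called in both directions in homozygotes. Of 29 ligand, receptor and enzyme genes, 6 were higher (20.7%), 6 lower (20.7%) and 17 not listed. Over annotated protein-coding genes these shares were 1.78% higher and 2.97% lower. The smallest adjusted p-values belonged to the FGF receptor gene Fgfr2 (log2 0.86, adjusted p listed as 0), the dorsal signal gene Wnt1 (3.19, adjusted p 3.75e-09), the retinaldehyde dehydrogenase gene Aldh1a3 (2.58, adjusted p 2.84e-07) and the BMP antagonist gene Nog (2.76, adjusted p 1.14e-05) in the authors' deposited table, all 4 of them higher. In heterozygotes 1 gene was higher, Aldh1a3 (log2 1.59), and 3 were lower, Shh, Ntn1 and Cyp26b1, in the authors' deposited table. Over annotated protein-coding genes, 0.182% were higher and 0.429% lower in heterozygotes. Ntn1, a guidance cue needed for canal formation, was at 38.6% of wild type there and not listed in homozygotes, the reverse of Otx1, Eya1 and Tbx3. That pattern was shared with neural tube markers. Of the 4 in that list with the smallest adjusted p in heterozygotes, Shh (2.16%), Foxa2 (9.34%) and Nkx6-1 (23.1%) were lower there and not listed in homozygotes. Barhl1 was lower in both genotypes. Whether the genotypes differ in any of these genes was not tested.

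The longest annotated transcript of the members measured 5273 nt for Otx1, whose longest coding transcript has 2789 nt, 4982 nt for Tbx3, 4366 nt for Eya1 and 4240 nt for Slitrk6. Of the 171 other called genes from 4240 to 5273 nt, 75.4% were lower in homozygotes, against 58.9% of the 903 called genes outside that range. By longest coding transcript, from 2789 to 4982 nt, 65.8% of 357 other called genes were lower, a range chosen after the data were seen. These differences were not tested. The part of transcript length in the members' falls was not tested.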

How the data were processed

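Otocyst RNA of 6 libraries, 2 per genotype by the genotype label, was sequenced as polyadenylated RNA. The authors' deposited lists give log2 fold changes against wild type and adjusted p-values, all under 0.05, per the file headers. Build mm9, Bowtie2 2.0.6 and DESeq 1.22.1 appear, without roles, in the submitters' processing notes. Filters and read counting are not given in the sources at hand. Levels in percent of wild type, ranks, distances and counts over 13 gene lists (224 distinct genes, 222 matched to GENCODE M21) were computed with Python 3.11.15, pandas 2.3.3, numpy 2.4.6 and scipy 1.17.1, and the ranking and motif steps were tested on simulated data. That annotation is of another build, so it served for names, types, overlaps and lengths. Named genes were the members, Chd7, Aldh1a3, all called genes of a list up to 6 or otherwise the 4 smallest adjusted p-values, the 2 nearest folds and the 4 nearest pairs. Gnat3 and the unlisted genes named were picked after the values were seen, and some genes the rule covers are not reported here. The members and lists were chosen with earlier results of these data known. The alternatives tried were a stricter adjusted p, a minimum fold, other gene totals and a shorter promoter window. Protein sequences were not used here.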

Additional observations from a re-analysis of the deposited data

How the results depend on the processing

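All 4 members stayed called in homozygotes at an adjusted p under 0.01, under 0.001 and with a minimum absolute log2 fold of 1. In heterozygotes the call of Slitrk6 passed both stricter adjusted p-values and was lost at the minimum fold, which leaves 0 members. At an adjusted p under 0.01, 253 higher and 394 lower genes were left in homozygotes and 28 and 59 in heterozygotes. Under 0.001 these became 166 and 225, and 23 and 42. At the minimum fold the heterozygous lists held 19 higher and 32 lower genes. At an adjusted p under 0.01, called genes numbered 3 in the Slitrk list, 4 in the innervation list and 1 in the blood list in homozygotes, and 1 in the Eya network and 2 in the mesenchyme list in heterozygotes. At the minimum fold, heterozygotes had 0 in the transcription factor, Eya network, Slitrk, innervation, mesenchyme and neuroblast lists and 1 in the neural crest and blood lists, and homozygotes 1 in the blood list. The other 21 list counts at the stricter adjusted p and 17 at the minimum fold moved by at most 1.5 times. These changes follow from fewer genes passing. Among heterozygous lower genes with an adjusted p under 0.01, 33.9% had a smaller fold than Slitrk6. Over all annotated genes, the called share was 1.2% lower and 0.746% higher in homozygotes and 0.17% and 0.0777% in heterozygotes. The promoter counts did not change in the shorter window. No paired analysis was possible because the lists hold no values per library, and for the same reason no library could be left out. Depth is unknown, so unlisted genes cannot be ranked by precision.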
